A study of Homo sapiens with 12 samples.

Results

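The 10 transcription factors described here regulate the stage of a B cell, and some of them mark the activated B-cell form of lymphoma. They were BCL6, BACH2, POU2AF1, FOXP1, PAX5, EBF1, SPIB, IRF4, PRDM1 and XBP1, chosen by symbol through the Ensembl identifiers of the count table, and all 10 were found among its 58884 genes. RNA was sequenced from U2932 and TMD8, established cell lines of diffuse large B-cell lymphoma (DLBCL) that the labels give as wild type and the study's methods class as activated B-cell (ABC) lines. Each line was treated for 4 h with 20 µg/mL of rituximab (R), ofatumumab (OF) or a human IgG1 isotype control, which gave 6 conditions with 2 libraries each. R and OF are monoclonal antibodies against CD20, the B cell surface protein encoded by MS4A1. The cultures held lymphoma cells and antibody in RPMI with heat-inactivated serum, each line was a single line and not a patient sample, and its 2 replicates came from cells split and grown apart for a week. Within a line, R and OF were compared with the same isotype libraries, so the antibody comparisons of a line share their controls.

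A germinal centre B cell is held in its state by BCL6, a repressor that represses PRDM1, and by BACH2, which also represses PRDM1. PAX5 and EBF1 keep B cell genes on, and SPIB and POU2AF1 (the octamer coactivator OCA-B) support them. When a B cell becomes a plasma cell, IRF4 rises, PRDM1 (Blimp-1) shuts down PAX5 and BCL6, and XBP1 drives the genes of the secretory pathway. ABC lymphoma is known for high IRF4, SPIB and FOXP1 and for signalling through NF-kB.

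In GRCh38 coordinates of GENCODE 29, BCL6 lies at chr3:187721377-187745727, PAX5 at chr9:36833275-37034185, EBF1 at chr5:158695916-159099761, BACH2 at chr6:89926529-90296908 and POU2AF1 at chr11:111352252-111455630. FOXP1 lies at chr3:70952817-71583993, SPIB at chr19:50418938-50431313, IRF4 at chr6:391739-411447, PRDM1 at chr6:106086320-106109939 and XBP1 at chr22:28794555-28800597. SPIB, IRF4 and PRDM1 are on the plus strand and the others on the minus strand. Exons of BCL6, PAX5, BACH2 and POU2AF1 overlap antisense genes over 0.86% to 8.24% of their bases, and because the counting strand was not given in the sources used here, such reads cannot be told apart. FOXP1 shares 6.92% of its exon bases with AC097634.4 on the same strand and 0.16% with the antisense gene AC097634.3, so its reads could be split too.

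The libraries held 15440226 to 27110612 counts. CPM are counts scaled to library size with TMM normalization over the 12 libraries, and RPKM are CPM per kilobase of merged exons. TMD8 replicate 2 stood apart under OF and under isotype, where ribosomal protein genes took 7.16% and 6.50% of counts against 9.996% to 10.8% in the other 4 TMD8 libraries. Results in TMD8 are therefore also given without these 2 libraries where their size or call rests on them. In U2932 the ribosomal protein share was 4.44% and 4.74% under isotype and 6.03% to 6.56% under R and OF, and the part of this shift in the results below was not tested. B cell markers were present in both lines, with MS4A1 at 852 and 958 CPM under isotype in U2932 and at 1325 and 930.2 CPM in TMD8. The 10 marker genes of T cells, NK cells and myeloid cells summed to 0.0638 to 1.02 CPM per library, with 5 to 9 of them at 0. In these bulk samples, fewer cells with a transcript and less of it per cell cannot be told apart.

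The promoters of XBP1, PRDM1 and BACH2 are shown because these members changed most after antibody, XBP1 and PRDM1 in TMD8 and BACH2 in U2932. The sequences are from RefSeq (GRCh38.p14), 5′ to 3′ on the gene's strand, and end before the first base that RefSeq or GENCODE 29 annotates as transcribed from the gene. XBP1 lies on the minus strand (chr22:28800598-28800819), PRDM1 on the plus strand (chr6:106086086-106086319) and BACH2 on the minus strand (chr6:90296909-90297093). Capitals mark matches to the motifs searched on both strands.

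XBP1: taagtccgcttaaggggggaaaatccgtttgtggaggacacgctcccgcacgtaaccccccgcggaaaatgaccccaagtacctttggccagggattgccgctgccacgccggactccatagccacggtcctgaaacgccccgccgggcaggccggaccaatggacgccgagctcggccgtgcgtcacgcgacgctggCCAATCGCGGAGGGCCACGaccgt

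PRDM1: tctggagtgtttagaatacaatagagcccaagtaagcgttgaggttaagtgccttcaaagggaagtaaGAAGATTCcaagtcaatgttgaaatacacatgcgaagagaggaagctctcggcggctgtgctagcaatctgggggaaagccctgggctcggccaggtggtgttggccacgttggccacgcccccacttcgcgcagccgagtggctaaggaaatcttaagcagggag

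BACH2: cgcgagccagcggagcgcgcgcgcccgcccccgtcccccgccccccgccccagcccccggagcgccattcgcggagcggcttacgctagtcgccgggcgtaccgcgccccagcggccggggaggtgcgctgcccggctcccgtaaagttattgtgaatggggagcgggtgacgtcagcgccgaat

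The capitals in XBP1 are the endoplasmic reticulum (ER) stress response element, CCAAT and CCACG with 9 bases between them, which 0.074% of 35116 RefSeq promoters held in the 250 bases before the start. This motif was added after the sequence had been read. The capitals in PRDM1 are GAANNTTC, a heat shock factor core, which 5.78% of promoters held. The BACH2 stretch held no match to any motif searched. The others searched were TTCNNNGAA (BCL6 and STAT, in 6.57% of promoters), ATGCAAAT (octamer, 1.63%), GGAANNGAA (ETS and IRF, 6.58%), AGTGAAAG (PRDM1, 1.08%), TGANTCA (AP-1 and BACH, 6.57%), GACGTG (XBP1, 6.50%), CCCNNGGG (EBF, 17.1%), GTAAACA (forkhead, 2.98%) and GGGANTTNC (NF-kB, 3.96%). Among the other members, BCL6 held TTCNNNGAA, the motif named for its own product, at 28 bases before the start. EBF1 held GGAANNGAA at 33 bases and AGTGAAAG at 30 bases, and these matches overlap. PAX5 held GACGTG, SPIB and FOXP1 held CCCNNGGG, and IRF4 held no match. RefSeq promoters matched 9 of the 10 members, all but POU2AF1. The match of a motif describes the letters only.

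Without anti-CD20, the 2 lines differed widely in these factors. In U2932 under isotype, XBP1 was the most abundant member per length, at 157 ± 10.6 RPKM (SD, n = 2). IRF4 followed at 63.0 ± 0.541, POU2AF1 at 49.1 ± 5.01, BCL6 at 32.1 ± 1.28, PAX5 at 29.6 ± 1.49 and SPIB at 26.6 ± 3.18 RPKM. BACH2 was at 8.58 ± 0.408, EBF1 at 7.32 ± 0.711, PRDM1 at 4.20 ± 0.238 and FOXP1 at 1.73 ± 0.215 RPKM. The replicates of neighbours in this order overlapped for PAX5 and SPIB alone, and with 2 libraries a gap as small as that between BCL6 and PAX5 is a weak one. The order of the upper ranks turned on the length used: per kilobase of the longest coding transcript, POU2AF1 was at 111 and IRF4 at 69.7 RPKM, and FOXP1 at 7.07 RPKM was above PRDM1 at 5.20 RPKM.

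In TMD8 under isotype, SPIB at 182 ± 30.1 and IRF4 at 180 ± 32.4 RPKM were the most abundant members, with overlapping replicates. PAX5 was at 59.3 ± 26.1, EBF1 at 15.1 ± 0.971 and PRDM1 at 14.4 ± 5.29 RPKM, the last 2 overlapping. POU2AF1 at 7.62 ± 1.70, XBP1 at 7.18 ± 1.96 and BCL6 at 4.81 ± 1.84 RPKM overlapped each with the next. FOXP1 was at 1.96 ± 0.251 RPKM and BACH2 near 0. XBP1 thus led the order in U2932 and SPIB and IRF4 led it in TMD8.

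**Figure D1:**
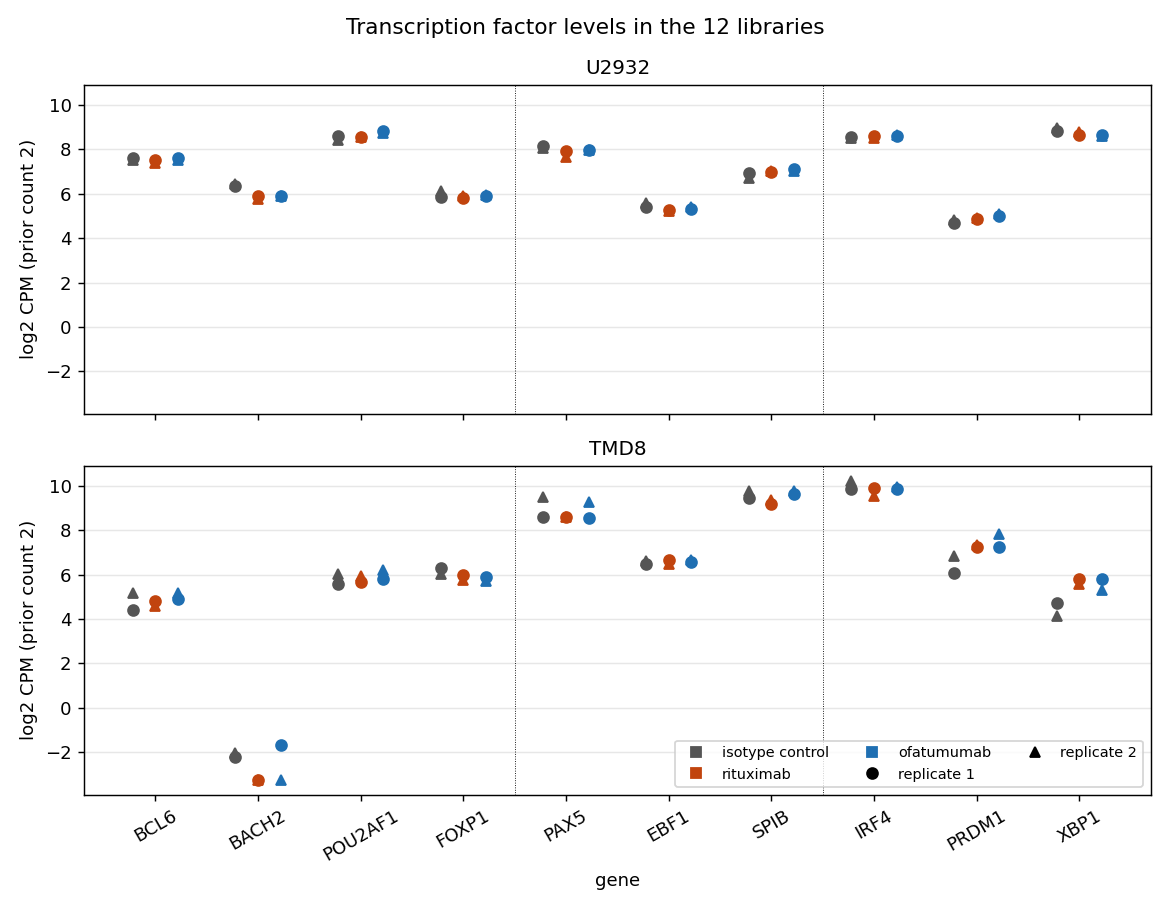
Log2 CPM (vertical axis, prior count of 2) of the 10 members in U2932 (upper panel) and TMD8 (lower panel). Points are single libraries, coloured by antibody and shaped by replicate. XBP1, BCL6, POU2AF1 and BACH2 sit higher in U2932, SPIB, IRF4 and PRDM1 sit higher in TMD8, and BACH2 in TMD8 lies at the floor that the prior count sets.

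Between the lines under isotype, 4 members were higher in U2932 and 5 were lower at an adjusted p under 0.10, where 33.2% of 16187 genes tested were higher and 33.7% were lower. XBP1 was at 452 and 497 CPM in U2932 and at 25.9 and 17.6 CPM in TMD8, a log2 difference of 4.43 ± 0.23 (SE, adjusted p = 2.74e-08). BCL6 was at 196 and 185 CPM in U2932 and at 20.8 and 36.3 CPM in TMD8, a log2 difference of 2.71 ± 0.22 (adjusted p = 1.21e-06). POU2AF1 was at 391 and 338 CPM against 47.6 and 65.4 CPM, a log2 difference of 2.67 ± 0.19. For each of these genes no TMD8 library reached a U2932 library.

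BACH2 was at 81.1 and 86.8 CPM in U2932 and had 2 and 4 counts in the TMD8 isotype libraries. Its normalized rate was 650.4 times higher in U2932 under isotype, with a 95% exact binomial interval of 299 to 1773. Under R it had 2081 counts in U2932 and 0 in TMD8, and at a floor of 3 counts over both TMD8 libraries it was at least 600.1-fold higher. Under OF it had 3 counts in TMD8, and the ratio was 596 with an interval of 204 to 2891. The intervals and the floor cover counting error only. BACH2, a repressor of PRDM1, was thus near the floor of the assay in all 6 TMD8 libraries.

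The members that were lower in U2932 included SPIB and IRF4, of the factors known to be high in ABC lymphoma. SPIB was at 124 and 104 CPM in U2932 and at 689 and 871 CPM in TMD8, a log2 difference of -2.79 ± 0.16 (adjusted p = 6.81e-08). Of the exon bases of SPIB, 19.6% are shared with AC020909.1 on the same strand, so its reads could be split between them. PRDM1 was at 25.8 and 27.9 CPM in U2932 and at 68.2 and 116 CPM in TMD8, a log2 difference of -1.80 ± 0.24 (adjusted p = 6.02e-05). IRF4 was at 374 and 369 CPM in U2932 and at 926 and 1196 CPM in TMD8, a log2 difference of -1.53 ± 0.16.

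EBF1 was at 42.1 and 48.3 CPM in U2932 and at 89.3 and 97.8 CPM in TMD8, a log2 difference of -1.07 ± 0.13. PAX5 was at 286 and 266 CPM in U2932 and at 382 and 726 CPM in TMD8, a log2 difference of -1.02 ± 0.28 (adjusted p = 0.00796). Without TMD8 isotype replicate 2 it was -0.49 (adjusted p = 0.0751), and with the replicate block it was -0.62 (adjusted p = 0.0122). FOXP1, another factor of ABC lymphoma, was at 58.0 and 69.2 CPM against 78.3 and 65.3 CPM, and its libraries overlapped (log2 difference -0.20, 95% interval -0.47 to 0.08, adjusted p = 0.245). With the replicate block, a paired fit in which the replicate number is a term, FOXP1 passed (log2 difference -0.35, adjusted p = 0.0223). Its difference was also larger, at -0.32, without TMD8 isotype replicate 2.

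The genes around these factors differed too. Of 13 plasma cell genes, 11 were higher in U2932 and 1 was lower, with a median log2 difference of 3.40 against -0.02 over all genes tested. JCHAIN, the joining chain of secreted antibodies, was higher by 6.52 ± 0.18 on the log2 scale and CD38, a plasma cell surface enzyme, by 6.06 ± 0.17. Of 10 XBP1 target genes of the secretory pathway, 9 were higher in U2932 and 0 were lower (median 1.27), among them the ER co-chaperones DNAJB9 (3.42 ± 0.18) and DNAJC3 (2.03 ± 0.12). PRDM1 was thus lower in U2932 while most listed plasma cell genes and XBP1 targets were higher.

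Of 11 germinal centre genes tested, 8 were higher in U2932 and 3 were lower (median 1.88). NEIL1, a DNA glycosylase, was higher by 4.54 ± 0.27. Of the genes of the Lymph2Cx classifier, 5 of 6 that mark germinal centre B-cell (GCB) lymphoma were higher in U2932 and 0 were lower. With the replicate block 1, SERPINA9, was lower (-0.41, adjusted p = 0.0106). MME (CD10) was at 52.0 and 61.2 CPM in U2932 and at 0.168 and 0.0349 CPM in TMD8. The ABC genes of the classifier include the member IRF4, which was lower in U2932 (-1.53). Of the 7 others, 5 were lower in U2932 and 2 were higher. RAB29 was lower by 3.37 on the log2 scale, and CCDC50 was higher by 0.52. Both lines carry the ABC label in the study's methods, while a figure caption of the study places U2932 among its GCB lines. U2932 held the higher level of most GCB genes of the classifier.

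Of 15 BCL6-repressed genes, 6 were higher in U2932, where BCL6 was higher, and 6 were lower (median -0.07). CD44, an adhesion receptor, was lower by 3.19 ± 0.14 and the antiapoptotic gene BCL2 was higher by 2.93 on the log2 scale. Of 12 B cell identity genes under PAX5 and EBF1, 5 were higher in U2932 and 3 were lower (median 0.08). Of 18 other B cell transcription factors and corepressors, 8 were higher and 6 were lower (median 0.01), among them IRF8 (3.20 ± 0.16) and POU2F2, the octamer factor OCT2 (-1.94 ± 0.15).

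In U2932, R was followed by lower levels of 4 of the 10 members and higher levels of 0, all under 1.5-fold. Among 14635 genes tested, 17.4% were lower with R and 16.8% were higher. In either direction 5005 of the 14635 genes passed, so the 4 of 10 members were near the background. BACH2 was at 81.1 and 86.8 CPM under isotype and at 60.3 and 54.3 CPM under R, with no overlap (log2 fold change -0.57 ± 0.10, adjusted p = 6.96e-05). PAX5 was at 286 and 266 CPM under isotype and at 241 and 204 CPM under R (-0.33 ± 0.09, adjusted p = 0.00740). EBF1 was at 42.1 and 48.3 CPM under isotype and at 38.5 and 36.9 CPM under R (-0.28 ± 0.10, adjusted p = 0.0443). XBP1 was at 452 and 497 CPM under isotype and at 394 and 433 CPM under R (-0.22 ± 0.08, adjusted p = 0.0564). For these 4 genes both R libraries lay below both isotype libraries. Leaving out R replicate 2 ended the call for PAX5 (-0.21, adjusted p = 0.175) and EBF1 (-0.24), leaving out R replicate 1 ended it for XBP1 (-0.15) and EBF1 (-0.32), and leaving out isotype replicate 2 ended it for XBP1 (-0.15) and EBF1 (-0.18). BACH2 passed with each library left out in turn, and in a fit of all 12 libraries, which takes its spread from TMD8 too, 0 members passed with either antibody.

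With OF, 2 members were lower in U2932 and 3 were higher, where 17.8% and 18.7% of genes were. BACH2 was again lower, at 58.9 and 59.2 CPM (log2 fold change -0.53 ± 0.10, adjusted p = 1.74e-04), and so was XBP1, at 404 and 386 CPM (-0.28 ± 0.08, adjusted p = 0.0117). POU2AF1 was at 391 and 338 CPM under isotype and at 452 and 426 CPM under OF (0.25 ± 0.09, adjusted p = 0.0311). PRDM1 was at 25.8 and 27.9 CPM under isotype and at 31.7 and 34.1 CPM under OF (0.28 ± 0.11, adjusted p = 0.0520). SPIB was at 124 and 104 CPM under isotype and at 138 and 131 CPM under OF (0.22 ± 0.10, adjusted p = 0.0837).

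Leaving out OF replicate 1 or OF replicate 2 ended the calls of POU2AF1 (0.21 and 0.28), PRDM1 (0.33 and 0.22) and SPIB (0.18 and 0.25). Leaving out isotype replicate 2 ended those of POU2AF1 (0.14) and SPIB (0.10), leaving out isotype replicate 1 ended that of PRDM1 (0.21), and leaving out OF replicate 2 ended that of XBP1 (-0.26). Over 10 genes, both counts with OF were near the background share. PAX5 at 247 and 250.2 CPM under OF (-0.17, adjusted p = 0.169) and EBF1 at 40.0 and 42.1 CPM (-0.16, adjusted p = 0.272) did not pass. PAX5 passed with OF without isotype replicate 2 (-0.22), and EBF1 without isotype replicate 1 (-0.26). Under library size alone as the scaling, the median of all genes in U2932 moved to -0.12 with R and -0.07 with OF, and the share of calls that were higher fell from 49.2% to 31.5% with R and from 51.3% to 36.1% with OF. BACH2, PAX5 and XBP1 kept their direction in U2932 under all alternatives run. BACH2 passed in 15 of 16 of them with R, with log2 fold changes from -0.67 to -0.45, and in 15 of 16 with OF.

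SPIB at 127 and 130.4 CPM (0.16, adjusted p = 0.241), PRDM1 at 28.6 and 30.1 CPM (0.11, adjusted p = 0.492) and POU2AF1 at 375 and 370.2 CPM (0.01, adjusted p = 0.935) did not pass with R in U2932, though SPIB passed without isotype replicate 1 (0.28, adjusted p = 0.0185). BCL6 and IRF4 did not pass in U2932 with either antibody. BCL6 was at 196 and 185 CPM under isotype, 186 and 167 CPM under R and 193 and 182 CPM under OF, and its libraries overlapped. The 95% intervals of its log2 fold change were -0.30 to 0.05 with R and -0.22 to 0.13 with OF. IRF4 was at 374 and 369 CPM under isotype, 391 and 365 CPM under R and 391 and 395 CPM under OF, with intervals of -0.15 to 0.17 and -0.10 to 0.22. FOXP1 was at 58.0 and 69.2 CPM under isotype, 56.4 and 59.3 CPM under R and 60.0 and 60.8 CPM under OF. It did not pass, and passed without isotype replicate 1 (-0.28 with R and -0.22 with OF). A BCL6 or IRF4 change of 1.5-fold lies outside these intervals.

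**Figure D2:**
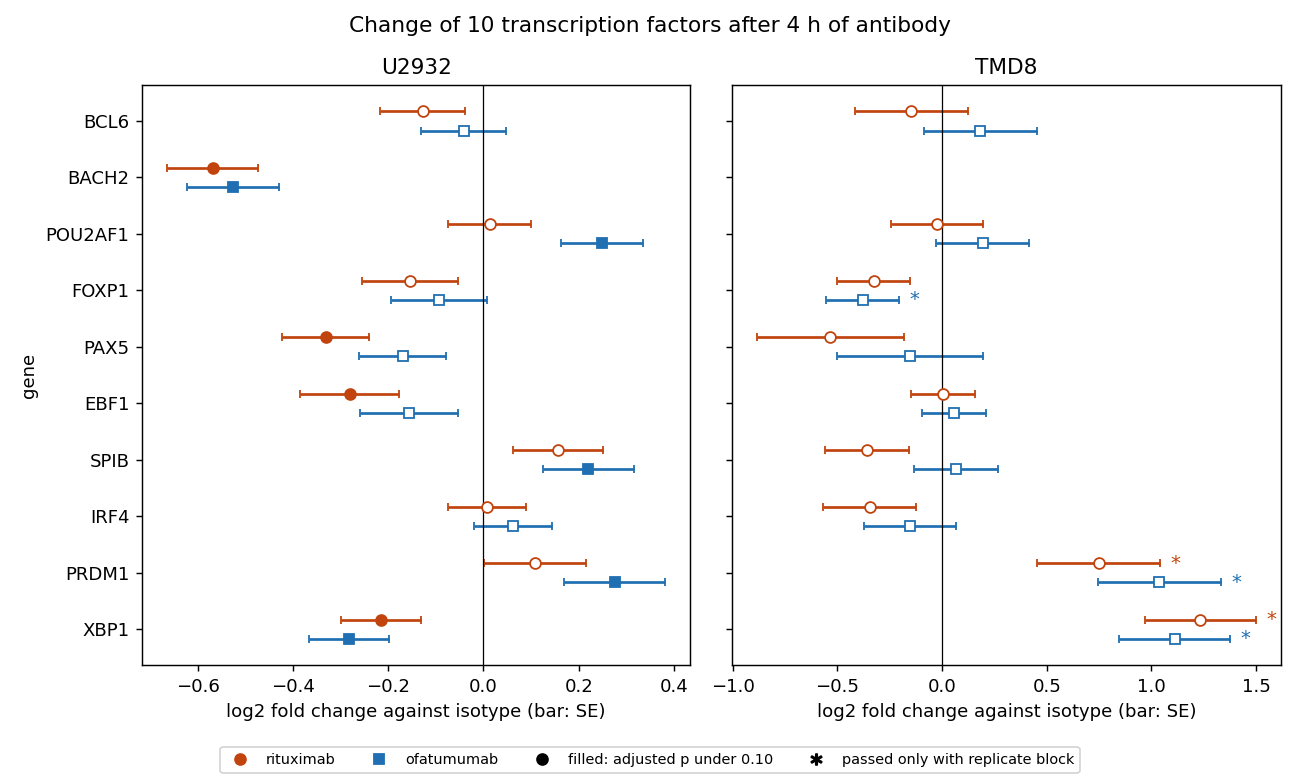
Log2 fold change against isotype (horizontal axis, bars are SE, the scales of the panels differ) of the 10 members with rituximab (circles) and ofatumumab (squares) in U2932 and TMD8, from 2 libraries per condition. Filled marks passed at an adjusted p under 0.10 and asterisks mark those that passed only with the replicate block. BACH2 is the lowest member in U2932, XBP1 and PRDM1 are the highest in TMD8, and BACH2 has no mark in TMD8, where it was not tested.

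Around the members, B cell identity genes under PAX5 and EBF1 were higher in U2932 although PAX5 and EBF1 were lower or did not pass. With R, 8 of 11 tested were higher and 0 were lower, with a median log2 fold change of 0.43 against -0.02 over all genes, and with OF 7 were higher and 0 were lower (median 0.42 against 0.01). CD79A, a chain of the B cell receptor, was at 474 and 427 CPM under isotype, 822 and 817 CPM under R and 832 and 803 CPM under OF. MS4A1, which encodes the antibodies' target CD20, was at 852 and 958 CPM under isotype, 1437 and 1698 CPM under R and 1458 and 1466 CPM under OF. VPREB3, a pre-B cell receptor protein, rose by 1.68 ± 0.21 with R and 1.63 ± 0.21 with OF on the log2 scale. CIITA, the MHC class II transactivator that PRDM1 represses, rose by 0.60 ± 0.10 and 0.82 ± 0.10.

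Germinal centre genes were split. With R, 2 of 11 were higher and 5 were lower (median -0.26), and with OF 1 was higher and 2 were lower (median -0.07). With the replicate block, the paired fit, the OF counts were 2 and 5. RGS13, a regulator of G protein signalling in germinal centre B cells, was at 116 and 131 CPM under isotype, 407 and 451 CPM under R and 381 and 399 CPM under OF. All its antibody libraries lay above isotype (log2 fold change 1.78 ± 0.09 with R). UNG, a uracil DNA glycosylase, fell by 0.36 with R and by 0.34 with OF on the log2 scale.

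Of 13 plasma cell genes, 7 were higher with R and 2 were lower (median 0.23), and 4 were higher with OF and 1 was lower (median 0.15). PRDX4, an ER peroxiredoxin, rose by 0.53 ± 0.10 with R and JCHAIN by 0.28 ± 0.08, while SLAMF7, a plasma cell surface receptor, was at 120 and 130 CPM under isotype and 80.5 and 84.9 CPM under R. XBP1 targets moved both ways. With R 1 of 10 was higher and 3 were lower (median 0.02; 2 and 4 with the replicate block), and with OF 2 were higher and 3 were lower (median -0.03). DNAJB9 was at 49.1 and 50.5 CPM under isotype, 36.2 and 35.1 CPM under R and 32.9 and 34.1 CPM under OF. PDIA6, a protein disulfide isomerase, rose by 0.30 ± 0.08 with R, and SRPRB and SEC31A, of ER targeting and vesicle transport, fell by 0.27 and 0.26.

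BCL6-repressed genes were split, with 4 of 14 higher and 6 lower with R (median -0.11) and 4 higher and 4 lower with OF (median -0.14). The cell cycle inhibitor CDKN1A rose by 0.79 ± 0.09 with R and the acetyltransferase EP300 fell by 0.79 ± 0.11. Of 18 other B cell transcription factors and corepressors, 8 were lower with R and 1 was higher (median -0.20), and 5 were lower with OF and 2 were higher (median -0.10). IRF8, a germinal centre factor that partners SPIB and PU.1, was at 399.7 and 367 CPM under isotype, 246 and 235 CPM under R and 259 and 255 CPM under OF. BCOR, a corepressor of BCL6, fell by 0.60 ± 0.10 with R and by 0.35 ± 0.10 with OF, and POU2F2 rose by 0.38 ± 0.08 and 0.66 ± 0.08. Of the 7 ABC genes other than IRF4, 4 were lower with R and 0 were higher (median -0.27), led by LIMD1 (-0.61 ± 0.11). With OF, 3 were lower and 1 was higher (median -0.17). Of 6 GCB genes, 1 was higher with R (median 0.03) and 2 were higher with OF (median 0.11), and 0 were lower with either.

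In TMD8, the members that moved most were the plasma cell factors XBP1 and PRDM1, both upward. XBP1 was at 25.9 and 17.6 CPM under isotype, 55.9 and 47.6 CPM under R and 55.6 and 39.1 CPM under OF. PRDM1 was at 68.2 and 116 CPM under isotype, 152 and 161 CPM under R and 152 and 229 CPM under OF. For both genes every R and OF library lay above both isotype libraries. XBP1 was 2.35 times higher with R (log2 fold change 1.23 ± 0.26) and 2.16 times higher with OF (1.11 ± 0.26). PRDM1 was 1.68 times higher with R (0.75 ± 0.29) and 2.05 times higher with OF (1.04 ± 0.30).

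In the fit without pairing, none of the 9 members tested passed in TMD8. The adjusted p by edgeR was 0.123 with R and 0.154 with OF for XBP1, and 0.285 and 0.197 for PRDM1. Of all 14227 genes, 0.647% passed with R and 0.815% with OF. At an unadjusted p under 0.05 there were 2 of 9 members with each antibody, XBP1 and PRDM1, where 15.9% of genes were with R and 14.1% with OF. DESeq2 called XBP1 with R, where it called 5.07% of genes, and XBP1 and PRDM1 with OF, where it called 4.18%. The median SE of a log2 fold change with R was 0.25 in TMD8 and 0.12 in U2932.

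The replicate number marks a culture shared by the 3 antibodies of a line, so the paired fit, with the replicate block, bears on these calls. In TMD8, replicate differences over all genes tested correlated at 0.69 between OF and isotype but at 0.22 and 0.23 between R and these. R thus shared little of that difference, and the part of this in the smaller SE of the paired fit was not tested. With the replicate block, 2 members were higher with R and 0 were lower, against 8.99% and 8.73% of genes. With OF, 2 were higher and 1 was lower, against 7.45% and 6.87% of genes. XBP1 passed with R at 1.26 ± 0.14 (adjusted p = 0.00267), and its OF value of 1.12 ± 0.14 passed as well (adjusted p = 0.00578). PRDM1 passed with R at 0.80 ± 0.17 (adjusted p = 0.0256), and under OF at 1.05 ± 0.17 (adjusted p = 0.0123). Within replicate 1, XBP1 was 2.15 times higher with R and 2.14 times with OF, and within replicate 2 it was 2.70 and 2.22 times higher. Within replicate 1, PRDM1 was 2.23 and 2.22 times higher, and within replicate 2 it was 1.39 and 1.97 times higher.

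Without the TMD8 replicate 2 libraries of OF and isotype, the log2 fold change of XBP1 was 0.96 with R and 1.06 with OF, and that of PRDM1 was 1.16 and 1.12. In that fit, where the single OF and isotype libraries were taken to vary like the R pair, both genes passed with both antibodies, as did FOXP1 (-0.47 with R and -0.46 with OF) and, with OF, BCL6 (0.47). Of all genes, 30.3% passed with R and 23.4% with OF in that fit, so the 3 and 4 members of 9 were near the background. PRDM1 with R ranged from 0.43 without isotype replicate 1 to 1.17 without isotype replicate 2. Of the members that repress PRDM1, BACH2 was too low to be tested in TMD8 and BCL6 did not pass. BCL6 was at 20.8 and 36.3 CPM under isotype, 28.2 and 24.1 CPM under R and 29.6 and 35.8 CPM under OF.

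**Figure D3:**
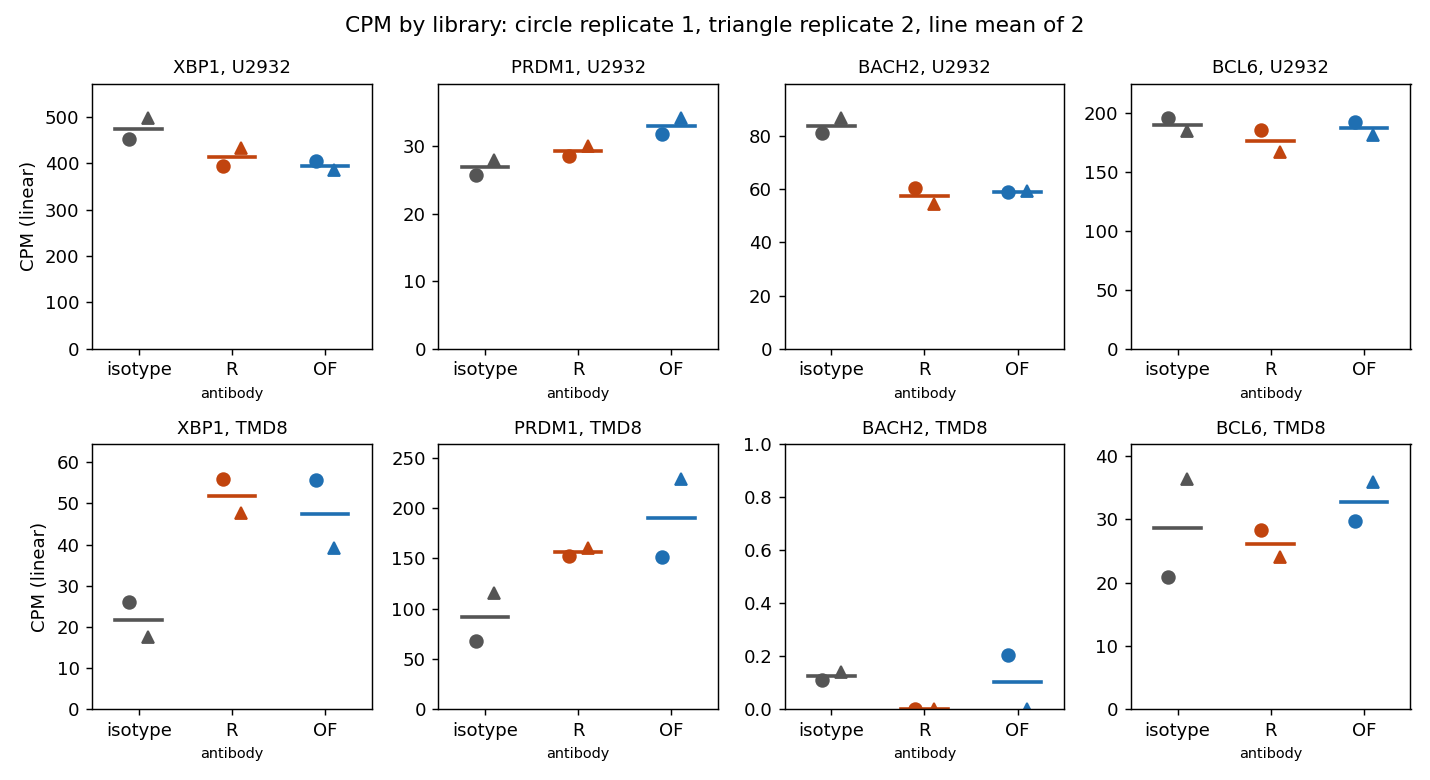
CPM (vertical axes, linear and starting at 0, each with its own scale) of XBP1, PRDM1, BACH2 and BCL6 by antibody in U2932 (upper row) and TMD8 (lower row). Points are libraries, circles are replicate 1 and triangles are replicate 2, and lines are means of 2 libraries. XBP1 and PRDM1 under R and OF lie above isotype in TMD8, BACH2 under R and OF lies below isotype in U2932, and BCL6 overlaps between antibodies in both lines.

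The other members in TMD8 did not pass without pairing. FOXP1 was at 78.3 and 65.3 CPM under isotype, 62.3 and 53.8 CPM under R and 58.4 and 52.9 CPM under OF, so the antibody libraries lay below both isotype libraries. Its log2 fold change with OF was -0.38 (adjusted p = 0.391), and -0.37 with the replicate block in the paired fit (adjusted p = 0.0995). PAX5 was at 382 and 726 CPM under isotype, 381 and 392 CPM under R and 376 and 624 CPM under OF, so its 2 high values were the replicate 2 libraries that stood apart. SPIB was at 689 and 871 CPM under isotype, 573 and 657 CPM under R and 782 and 863 CPM under OF. IRF4 was at 926 and 1196 CPM under isotype, 942 and 747 CPM under R and 932 and 988 CPM under OF. EBF1 was at 88.1 to 102 CPM and POU2AF1 at 47.6 to 73.8 CPM over the 6 TMD8 libraries, and the antibody and isotype libraries of each overlapped.

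Among the listed genes around the members, few passed in TMD8 without pairing. Of 10 XBP1 target genes, 1 was higher with R and 0 with OF without pairing (medians 0.24 and 0.15), and with the replicate block 2 were higher with R and 3 with OF, with 0 lower. DNAJC3, which was at 40.2 CPM in both isotype libraries, was at 83.9 and 77.5 CPM under R and at 68.3 and 70.3 CPM under OF. It passed with R without pairing (log2 fold change 0.99 ± 0.14, adjusted p = 0.0803) and with OF in the paired fit (0.77 ± 0.12, adjusted p = 0.0112). SSR1, a subunit of the ER translocon-associated complex, passed in the paired fit under R at 0.75 ± 0.13 (adjusted p = 0.0114), and under OF at 0.43 ± 0.13 (adjusted p = 0.0763). DNAJB9, the XBP1 target that was lower in U2932, was at 5.66 and 3.67 CPM under isotype, 6.25 and 6.33 CPM under R and 5.08 and 4.85 CPM under OF in TMD8 and did not pass.

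**Figure D4:**
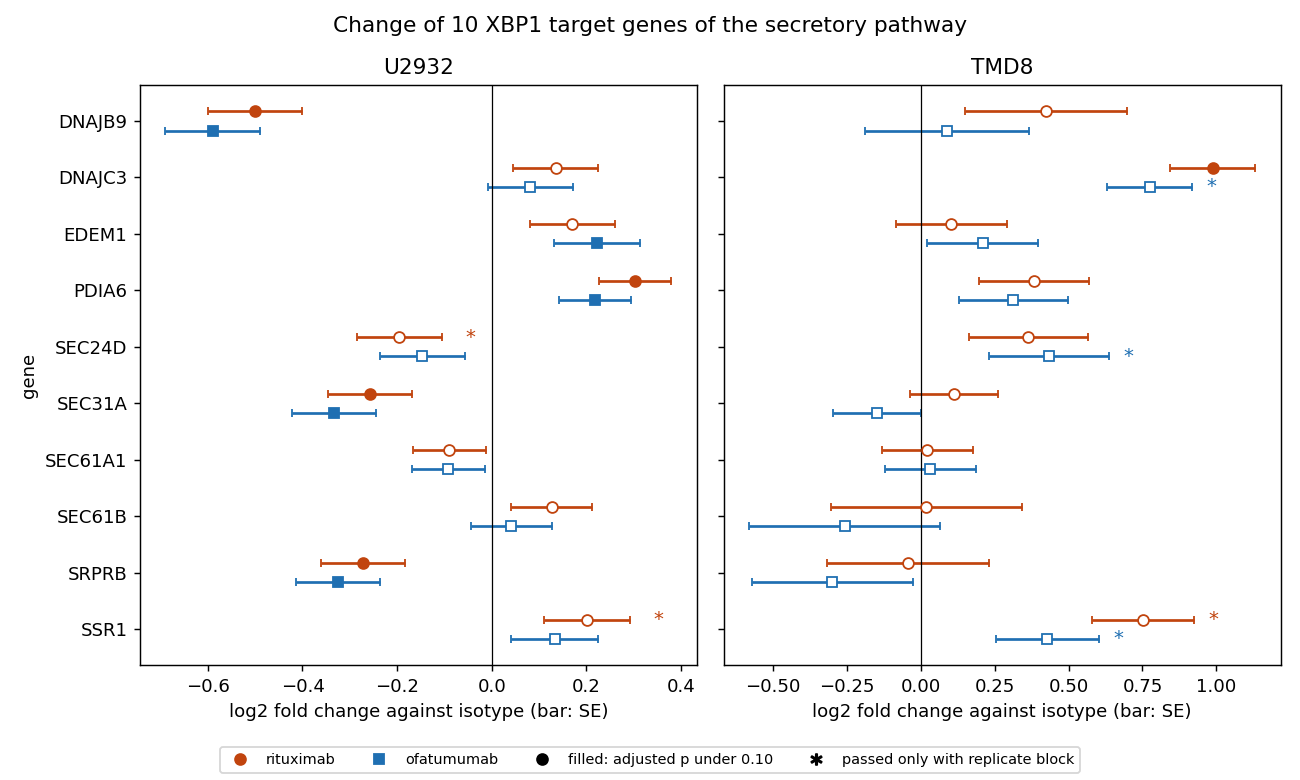
Log2 fold change against isotype (horizontal axis, bars are SE, the scales of the panels differ) of the 10 XBP1 target genes of the secretory pathway with rituximab (circles) and ofatumumab (squares) in U2932 and TMD8, from 2 libraries per condition. Filled marks passed at an adjusted p under 0.10 and asterisks mark those that passed only with the replicate block. DNAJB9 is the lowest gene in U2932 (-0.50 with R and -0.59 with OF), and DNAJC3 passed upward in TMD8.

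Of 10 germinal centre genes tested in TMD8, 1 was higher and 1 was lower with each antibody (medians -0.09 with R and -0.32 with OF). RGS13, higher in U2932 too, was at 30.9 and 22.7 CPM under isotype, 182 and 151 CPM under R and 170 and 113 CPM under OF (2.62 ± 0.28 with R, adjusted p = 0.0697). CXCR5, the chemokine receptor that guides B cells to follicles, was at 72.7 and 103 CPM under isotype, 27.1 and 28.6 CPM under R and 37.8 and 42.7 CPM under OF (-1.68 ± 0.20 with R, adjusted p = 0.0697). In the paired fit with the replicate block the counts were 1 and 2 with R and 2 and 2 with OF. Of 12 plasma cell genes, 0 passed with R and 1 was lower with OF. In the paired fit with the replicate block 1 was lower with R, and with OF 1 was higher and 2 were lower. The gene lower with OF in both fits was SLAMF7, at 102 and 74.4 CPM under isotype, 42.8 and 41.5 CPM under R and 39.0 and 32.8 CPM under OF.

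Of 12 B cell identity genes in TMD8, 0 passed without pairing (medians 0.19 with R and 0.29 with OF), and in the paired fit with the replicate block 4 were higher with R and 5 with OF, and 0 were lower. MS4A1, the target gene, was at 1325 and 930.2 CPM under isotype, 2352 and 2046 CPM under R and 1997 and 1475 CPM under OF, so all antibody libraries lay above isotype. It passed in the paired fit (R 0.97 ± 0.17, adjusted p = 0.0141; OF 0.62 ± 0.17, adjusted p = 0.0640). Of 15 BCL6-repressed genes, 0 passed without pairing, and in the paired fit 4 were higher and 5 were lower with each antibody. CDKN1A was higher there by 0.61 with R and 0.76 with OF, and CXCL10, a chemokine, fell by 1.05 and by 1.44 on the log2 scale. Of 18 other transcription factors and corepressors, 0 passed without pairing, and in the paired fit 2 were higher and 3 were lower with R, and 2 were higher and 1 was lower with OF. IRF8 was at 42.1 and 39.9 CPM under isotype, 23.5 and 32.6 CPM under R and 23.6 and 25.7 CPM under OF. None of the 7 ABC genes other than IRF4 or of the 4 GCB genes tested passed without pairing. In the paired fit 2 of these ABC and 2 GCB genes were lower with R and 1 of each with OF.

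No member was called different between R and OF in either line, with or without pairing. In U2932, 0.00683% of genes, which is 1 gene of 14635, differed, with 747 at an unadjusted p under 0.05 and 0 by DESeq2. The member nearest to a difference was POU2AF1, at 375 and 370.2 CPM under R and 452 and 426 CPM under OF (log2 difference -0.24, 95% interval -0.41 to -0.07, edgeR adjusted p = 0.910). In TMD8 0% of genes differed by edgeR, with 582 at an unadjusted p under 0.05, 0 of them members, and 0 genes by DESeq2. With no filter 71 genes differed and by DESeq2 with the replicate block 52 did, and 0 members were among either. For XBP1 in TMD8 the log2 difference of R from OF was 0.12, with an interval of -0.39 to 0.63, and for PRDM1 it was -0.29, with an interval of -0.86 to 0.28. With the replicate block, the paired fit, these differences were 0.14 ± 0.14 and -0.25 ± 0.17 (SE), and neither passed. SPIB was at 573 and 657 CPM under R and 782 and 863 CPM under OF in TMD8 (log2 difference -0.43, interval -0.82 to -0.03). This interval is a normal approximation and too narrow, and the edgeR test gave an unadjusted p of 0.0725 (adjusted p = 0.733). The SPIB difference was -0.35 without the OF and isotype libraries of replicate 2. It passed in that fit, where the single OF library was taken to vary like the R pair.

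XBP1 moved down in U2932 and up in TMD8 with both antibodies. In the edgeR fit without pairing, the difference between the lines passed for R alone. The difference between its R effects was -1.44 ± 0.28 on the log2 scale (adjusted p = 0.0997), and it was the only member called, where 0.321% of genes were. With OF the difference was -1.40 ± 0.28 (adjusted p = 0.157), 0 members were called, and 0.105% of 16187 genes were. The R call ended without either U2932 R library, either U2932 isotype library or either TMD8 R library, with differences from -1.55 to -1.33. In the paired fit with the replicate block, 3 members were called for R, where 6.04% of genes were, and 2 for OF, where 2.23% were. XBP1 was among both (-1.46, adjusted p = 0.00226, and -1.40, adjusted p = 0.00338). PRDM1 was too, with differences of -0.68 (adjusted p = 0.0909) and -0.77 (adjusted p = 0.0936), so its effect in that fit was larger in TMD8. SPIB was called for R alone (0.52, adjusted p = 0.0894). Without pairing, PRDM1 did not pass by edgeR with R (-0.63, adjusted p = 0.483) or OF (-0.76, adjusted p = 0.565), nor did SPIB with R (adjusted p = 0.371). The R difference of PRDM1 was -0.30 without TMD8 isotype replicate 1 and -1.06 without the TMD8 OF and isotype libraries of replicate 2. In the latter fit the OF difference of PRDM1 was -0.86, and the XBP1 differences were -1.18 with R and -1.36 with OF.

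The genes most like 4 of the members across the 12 libraries, after centring log2 CPM within each line, were ranked by Pearson's r among 11620 genes. The libraries share controls, depth and replicate effects, so these values describe the data only. XBP1 was most like UBE2J1, an ER ubiquitin-conjugating enzyme (r = 0.963, Spearman's rho = 0.965), GNB4 (r = 0.963) and DNAJB11, an ER co-chaperone (r = 0.960). PRDM1 was most like GTF3C2, MTMR4 and NBPF9 (r = 0.969 to 0.970). BCL6 was most like DDB1 (r = 0.965), POMT1 (r = 0.952) and EMC1 (r = 0.949), and IRF4 was most like HIP1 (r = 0.934), ADA2 (r = 0.901) and NDE1 (r = 0.891).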

How the data were processed

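The authors deposited raw counts per gene for 12 libraries made from TRIzol RNA with a NEBNext Ultra II kit, counted by STAR per annotated gene. The submitters' processing notes name Trim Galore 0.6.0, cutadapt, FastQC, STAR 2.7.0e, DESeq2 1.26.0 and GRCh38. Counting strand and annotation release are not given in the sources used here. Counts were fitted with the quasi-likelihood test of edgeR 4.0.16 (R 4.3.3) after TMM normalization and filterByExpr (minimum count 10), within each line for antibody effects and over all 12 libraries between lines. P-values were adjusted by Benjamini-Hochberg over all genes tested, and a gene passed at an adjusted p under 0.10. DESeq2 1.42.0, other scalings and filters, GC and length corrections and a replicate block were alternatives. Per the labels, each line was split and cultured apart, so a replicate number marks a shared culture. Replicate differences correlated at -0.05 to 0.10 between conditions in U2932. In TMD8 they correlated at 0.69 between OF and isotype and at 0.22 and 0.23 between R and these. P-values without pairing measure the spread between libraries of a condition, and those of the paired fit what remains after the replicate term. The replicates of a line were split from it and grown apart for a week, so no p-value covers independently established cultures. The rule for named genes was all 10 members and, per list and comparison, up to 4 genes of smallest p plus genes compared with a member. MS4A1 (the target gene) and DNAJB9 in TMD8 were named after their values were seen. Intervals of log2 values use the normal approximation and are narrower than the edgeR test, which has few degrees of freedom. Members and lists were chosen with earlier results of these data known. The fit was tested on simulated data. Totals of 15440226 to 27110612 counts set the precision. Some genes of the lists are not reported here by name.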

Additional observations from a re-analysis of the deposited data

Results flagged for a closer look

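For 3 genes the effect of R differed between U2932 and TMD8 by the interaction term of the edgeR fit. XBP1 differed by -1.44 on the log2 scale (adjusted p = 0.0997), with both R libraries below isotype in U2932 and above it in TMD8. DNAJC3, an XBP1 target, differed by -0.84 (adjusted p = 0.0997), with 155 and 179 CPM under isotype and 179.9 and 192 CPM under R in U2932 against 40.2 CPM in both isotype libraries and 83.9 and 77.5 CPM under R in TMD8. CXCR5 differed by 1.38 (adjusted p = 0.0511), since it fell further in TMD8 than in U2932. The part of the TMD8 replicate 2 isotype library, which stood apart, in the differences of DNAJC3 and CXCR5 was not tested. XBP1 was called without that library (adjusted p = 0.0771).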

How the results depend on the processing

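Of 1496 member fold changes under alternatives, 1374 stayed on their side of the threshold, 44 lost a call, 78 gained one and 0 called values reversed. Of the 1374, 92 that were not called changed sign. In U2932 with R, where 4 members passed, 0 did so in 1 fit of all 12 libraries and 0 at a change of at least 1.5-fold, and 2 to 6 did so with 1 library left out. With OF, where 5 passed, 3 did so with no filter, 0 in 1 fit of all 12 libraries, 3 at an adjusted p under 0.05, 0 at 1.5-fold and 1 to 6 with a library left out. In TMD8 with R, 0 members and 92 of all genes passed. With DESeq2, 1 member and 721 genes did so, and with no filter 2 and 1093. With the replicate block these counts were 2 and 2521, with GC content correction 1 and 471, and with both 3 and 2343. They were 1 and 435 with gene length correction and 2 and 1999 in 1 fit of all 12 libraries. By DESeq2 with the block, an alternative chosen after seeing the data, they were 2 and 1822. With OF in TMD8, 0 members and 116 of all genes passed. With DESeq2, 2 members and 594 genes did so, and with no filter 2 and 908. With the replicate block these counts were 3 and 2037, with block and GC correction 2 and 2235, and with gene length correction 1 and 316. In 1 fit of all 12 libraries they were 2 and 1607, and by DESeq2 with the block 2 and 1456. With libraries left out, 0 to 3 passed with R, 0 to 4 with OF and 0 to 1 between R and OF, and the highest of each were without the OF and isotype libraries of replicate 2 (3, 4 and 1). For the difference of R effects between lines, where 1 passed, 3 did so with the replicate block, 0 with the libraries compared alone, 3 by DESeq2 with the block, 0 at an adjusted p under 0.05 and 0 to 2 with libraries left out. For OF, where 0 passed, 1 did so with library size only, 1 with DESeq2, 1 with no filter, 2 with the replicate block, 1 with GC correction, 2 with both, 1 with gene length correction, 2 by DESeq2 with the block and 0 to 2 with libraries left out. Over all genes, the count that passed was 5005 with R in U2932 (1207 to 5992 over the alternatives), 5334 with OF (1407 to 6071), 92 with R in TMD8 (0 to 4361), 116 with OF (0 to 3369), 1 and 0 between R and OF in U2932 and TMD8 (0 to 5 and 0 to 576), 10820 between lines (7148 to 11776), and 52 and 17 for the differences of R and OF effects (0 to 2668 and 0 to 882). In TMD8, library size alone moved the median of all genes to -0.16 with R and the share of calls that were higher from 62.0% to 39.4%. For the differences of R and OF effects, 978 and 361 of all genes passed with the replicate block and 824 and 336 by DESeq2 with the block. For OF, 256 did so with DESeq2, 171 with no filter, 77 with GC correction, 486 with block and GC correction and 46 with gene length correction. In the remaining comparisons of members the replicate block changed no call beyond those given in the report. The cause was not tested, beyond the fewer samples or other spread that these settings use.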
